A study of Mus musculus with 39 samples.

Results

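The vomeronasal type 1 receptor genes (Vmn1r) were the protein-coding genes of chromosomes 1 to 19 whose symbol begins with Vmn1r in the GENCODE annotation of the mouse assembly GRCm38 (mm10). This choice gave 208 gene models with 207 symbols, out of 20807 protein-coding genes on these chromosomes. The samples were R1, a wild-type embryonic stem (ES) cell line that the labels assign to the inner cell mass of the mouse. Wrapping-seq with an antibody against histone H3 (4 libraries) measured the lengths of the DNA fragments left on nucleosomes after MNase digestion, and from the balance of longer and shorter fragments the authors called nucleosome wrapping domains (NRDs). This wrapping index is relative to the genome, and factors other than wrapping may enter it. TiNRDs, the domains named for tight wrapping, had a positive index, and LoNRDs, named for loose wrapping, a negative index. Replication timing (RT) was measured in 8 libraries of newly replicated DNA from 4 fractions of S phase, and RT domains with a positive log2 ratio were early and those with a negative ratio late. Each list held 1 call at a place, with no replicate and no read number, so the depth behind a domain was unknown and no difference below could be tested against a spread between samples.

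Vmn1r genes encode receptors with 7 membrane-spanning helices in sensory neurons of the apical layer of the vomeronasal organ, where they bind pheromones and other chemical signals. Binding activates a G protein with the Gnai2 subunit and opens the channel Trpc2, and each neuron is known to express a single receptor gene from a single allele. The family grew by local duplication, so that its genes lie side by side in arrays. ES cells are not vomeronasal neurons, and no expression was analysed here. The lists therefore describe where the family lies in the chromatin of a cell type other than its own.

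The members lay on 7 autosomes. Chromosome 7 held 103 of them, chromosome 6 held 51, chromosome 13 held 36, chromosome 17 held 14, chromosome 4 held 2, and chromosomes 1 and 18 held 1 each. Joining genes under 500 kb apart gave 15 clusters, of which 3 consisted of a single gene and 7 had 10 or more genes and together held 182 members. The coding sequence lay in 1 exon in 206 members and had a median length of 921 bp, with a range from 867 to 1152 bp. Of the members, 107 were on the plus strand and the others on the minus strand, so that the family had no common orientation.

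To ask where the family falls in the 2 partitions of the genome, each gene was assigned by its midpoint. Vmn1r genes lay mainly in LoNRDs and in late RT domains. Of 203 members in an NRD, 131 (64.5%) were in LoNRDs and 72 in TiNRDs, whereas 20.5% of all 20581 protein-coding genes with an NRD were in LoNRDs. Of 196 members in an RT domain, 162 (82.7%) were late and 34 early, against 22.1% late among all 20128 genes with an RT domain. The median wrapping index of the NRDs at the members was -0.094 (z-score), below the median of 0.757 at all genes. This median is the value of 1 LoNRD on chromosome 13, and it was -0.302 without chromosome 13 or without the largest cluster and 0.179 with each NRD counted in place of each gene. The median RT value at the members was -0.51 (log2), below 0.98 at all genes, and it was 0.53 with each RT domain counted in place of each gene.

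The 2 lists did not place the same members in the class that most of the family shared. Among the 191 members called in both lists, 106 (55.5%) were in a LoNRD and late, compared with 14.1% of all genes called in both. A further 51 members (26.7%) were in a TiNRD and late, compared with 7.82% of all genes. The remaining members were in a TiNRD and early (20 genes, 10.5%) or in a LoNRD and early (14 genes, 7.33%), while 72.5% of all genes were in a TiNRD and early. The vomeronasal type 2 receptors (Vmn2r), which serve the basal layer of the same organ, had 63.0% of 108 genes in a LoNRD and late and 14.8% in a TiNRD and late. The olfactory receptors (Olfr) of the main olfactory epithelium had 69.9% of 1056 genes in a LoNRD and late and 4.92% in a TiNRD and late. The share of Vmn1r in a TiNRD and late rested mainly on 1 cluster of chromosome 7, described below, which held 34 of the 51 genes. Without this cluster it was 13.5% (17 of 126), and for members on mostly single-copy sequence it was 11.4%. Both settings leave out largely the same genes and are not separate checks. The 14.8% of Vmn2r covers all its genes with both calls and was not recomputed in these ways. The 2 families were therefore not ranked by this share, and genes that share domains were not tested.

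**Figure D1:**
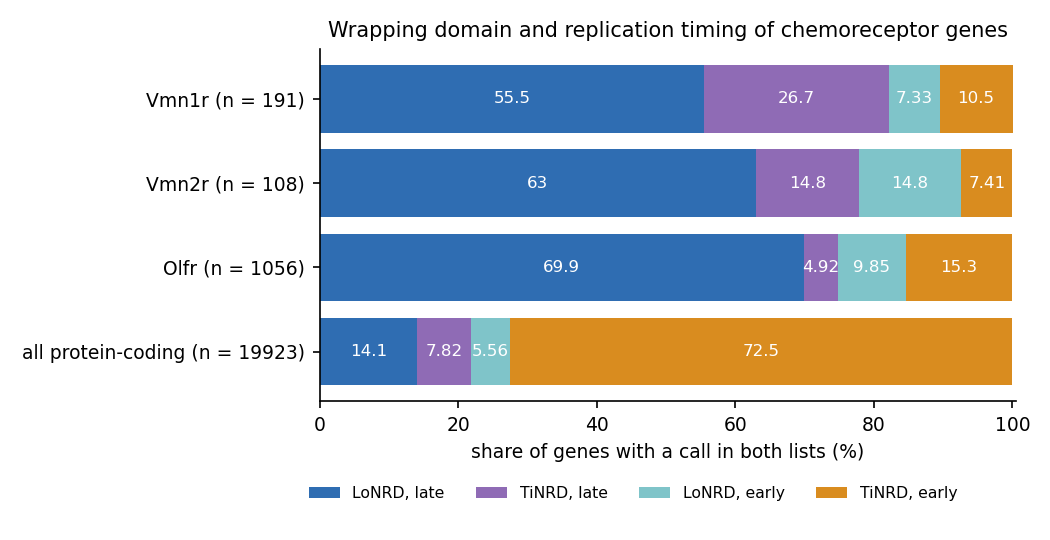
Share of genes (%) in each combination of wrapping domain and replication timing, for Vmn1r, Vmn2r, Olfr and all protein-coding genes with a call in both lists (n beside each bar). The share in a TiNRD and late is 26.7% in Vmn1r, 14.8% in Vmn2r, 4.92% in Olfr and 7.82% in all genes, and it falls to 13.5% in Vmn1r without the largest cluster.

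Few domains carried the family. The 203 members with an NRD lay in 28 NRDs (12 LoNRDs and 16 TiNRDs) out of 1086, and the 196 members with an RT domain lay in 25 RT domains (11 late and 14 early) out of 1617. Counted by domain rather than by gene, 42.9% of the NRDs were LoNRDs and 44.0% of the RT domains were late, because the LoNRDs and late domains held more members each. In the whole lists 525 of 1086 NRDs were LoNRDs and 849 of 1617 RT domains were late. By domain, the shares at the family were thus no higher than in the lists. The members most in number within a single NRD were the 35 genes from Vmn1r4 to Vmn1r38 on chromosome 6 and the 32 gene models from Vmn1r193 to Vmn1r223 on chromosome 13, both in LoNRDs. Next came 24 genes from Vmn1r100 to Vmn1r129 on chromosome 7, in a TiNRD.

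The highest wrapping index among the NRDs with members was 1.29, in the TiNRD that begins with Vmn1r179 on chromosome 7, followed by 1.05 at Vmn1r40 and 1.01 at Vmn1r50 on chromosome 6. The lowest was -1.18, in the LoNRD that begins with Vmn1r130 on chromosome 7, followed by -0.75 at Vmn1r224 on chromosome 17 and -0.71 at Vmn1r4 on chromosome 6. The NRDs with members therefore covered most of the scale of the list, but each index belongs to a whole domain. The TiNRD of 1.29 spans 2000 kb and holds 70 other coding genes, and that of 1.05 spans 4900 kb and holds 73. The wrapping at the members themselves was not analysed here. The highest RT value was 1.76 at Vmn1r91, followed by 1.62 at Vmn1r185 and 1.60 at Vmn1r180, all on chromosome 7. These too are values of whole domains, of 1550, 4850 and 2100 kb, with 66, 176 and 71 other coding genes. The genes lay 48.6, 163 and 3.16 kb from an RT border. The lowest was -0.93 at Vmn1r6 on chromosome 6, followed by -0.89 at Vmn1r90 and -0.80 at Vmn1r58 on chromosome 7. The middle 50% of the members lay between -0.64 and -0.44 in RT, all late, but between -0.71 and 0.46 in wrapping index, which covers both kinds of NRD.

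**Figure D2:**
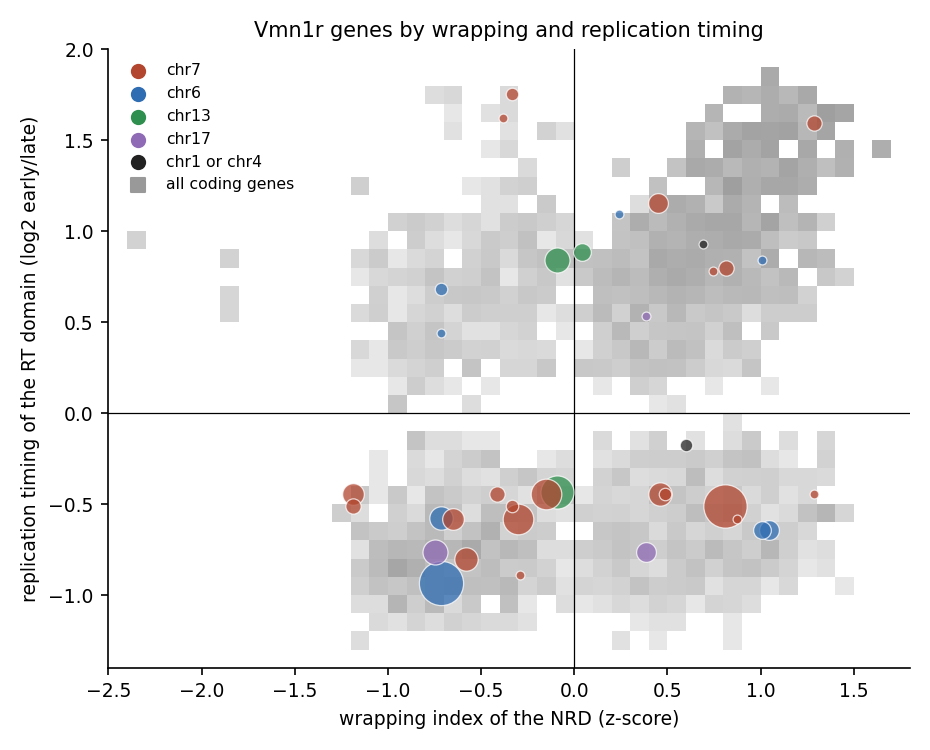
Wrapping index of the NRD (x, z-score) and RT value of the RT domain (y, log2) at each Vmn1r gene with both calls, with circle area proportional to the number of members at the same values and colour by chromosome; grey squares are all protein-coding genes in bins of 0.1. Circles below the horizontal line spread over both signs of the wrapping index, from -1.18 to 1.29.

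Of the 12 clusters with 2 or more genes, 5 lay in 1 NRD kind and 4 in 1 RT kind, and 3 lay in 1 kind in both lists. In 6 clusters members fell in both NRD kinds, and in 7 in both RT kinds. Most clusters were thus divided by at least 1 list.

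**Figure D3:**
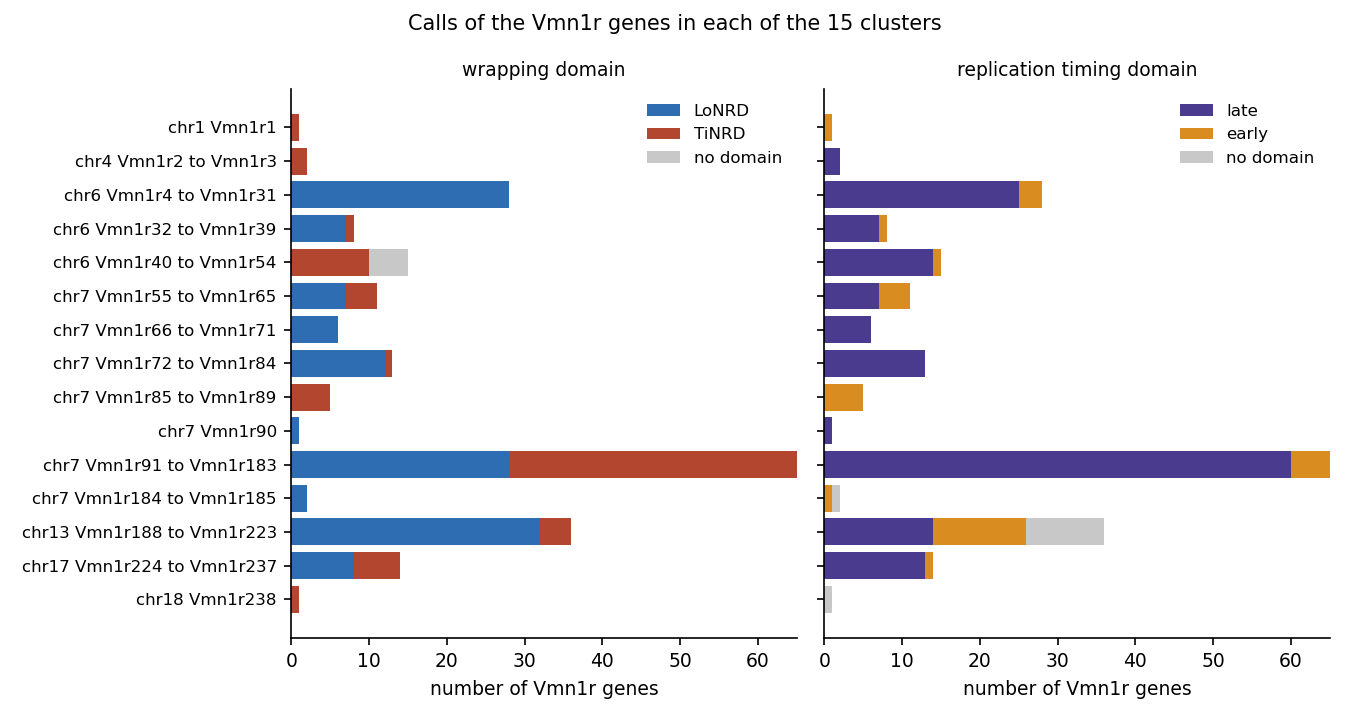
Number of Vmn1r genes (x) of each of the 15 clusters in LoNRDs, TiNRDs or no NRD (left) and in late, early or no RT domain (right). The chromosome 7 cluster from Vmn1r91 to Vmn1r183 has 28 genes in LoNRDs and 37 in TiNRDs but 60 late and 5 early.

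On chromosome 6, the cluster from Vmn1r4 to Vmn1r31 (chr6:56924015-58475330, 28 genes) lay in 1 LoNRD of 11100 kb with an index of -0.71. Replication timing divided it at both ends. Vmn1r4 and Vmn1r5 were in an early domain (0.68), the 25 genes from Vmn1r6 to Vmn1r30 in a late domain of -0.93, and Vmn1r31 in an early domain (0.44). Thus the late domain, which spans 1450 kb, held all but 3 genes of the cluster while the wrapping list showed no border in it. The nearest coding genes on its sides, Nt5c3 and Abcg2, were in LoNRDs too.

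Vmn1r32 to Vmn1r38, further along chromosome 6, were in the same LoNRD, in a late domain of -0.58. At position 66800000 both lists changed together, and Vmn1r39, whose gene model crosses no border, was in a TiNRD (0.24) and an early domain (1.09). The third array of chromosome 6, from Vmn1r40 to Vmn1r54 (chr6:89707540-90271213, 15 genes), showed the opposite arrangement to the first. Its 14 genes from Vmn1r40 to Vmn1r53 were in a late domain of -0.64, but 10 genes were in TiNRDs with indices of 1.05 and 1.01, and the 5 genes from Vmn1r45 to Vmn1r49 fell in a stretch of 200 kb without an NRD. No member of this cluster was in a LoNRD. Of this unlisted stretch, 67.6% of sampled 50-base sequences occurred at a single place in the assembly.

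On chromosome 7, the clusters nearest the centromere alternated between the states. Vmn1r55 to Vmn1r57 were in a TiNRD and early (index 0.82, RT 0.80), Vmn1r58 to Vmn1r64 in a LoNRD and late (-0.58 and -0.80), and Vmn1r65 again in a TiNRD and early (0.74 and 0.78). Here the 2 lists changed at nearby positions on both sides, the NRD borders at 5400000 and 6000000 and the RT borders at 5300000 and 5950000. Vmn1r66 to Vmn1r71 (6 genes) were in a LoNRD of -0.65 and late. Vmn1r72 was in a TiNRD (0.87), whereas its neighbours Vmn1r73 to Vmn1r84 were in a LoNRD of -0.30, and all 13 shared the late domain of -0.58. Vmn1r85 to Vmn1r89 were the only cluster of 2 or more genes with every member in a TiNRD and early, with an index of 0.45 and an RT value of 1.16. Vmn1r90, alone at chr7:14555474-14563506, was in a LoNRD (-0.29) and late (-0.89). Vmn1r184 and Vmn1r185 were in a LoNRD of -0.38, the former in no RT domain and the latter in an early domain of 1.62.

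The largest cluster, from Vmn1r91 to Vmn1r183 (chr7:20099680-24063554, 65 genes over 3964 kb), crossed 8 NRDs of alternating kind. From its start these held 4 genes (LoNRD, -0.33), 24 genes (TiNRD, 0.81), 9 genes (LoNRD, -1.18), 7 genes (TiNRD, 0.46), 3 genes (LoNRD, -0.42), 2 genes (TiNRD, 0.49), 12 genes (LoNRD, -0.15) and 4 genes (TiNRD, 1.29). RT showed no such alternation. Vmn1r91 and Vmn1r93 were in an early domain (1.76), the next 60 genes were in 2 late domains with values of -0.51 and -0.44, and the 3 genes from Vmn1r180 to Vmn1r183 were in an early domain (1.60). In all, 28 of its members were in LoNRDs and 37 in TiNRDs, and 34 of the 37 were late. The 2 late domains were separated by 150 kb with no RT domain and no member, in which 13.3% of the bases are unknown in the assembly. The LoNRD of -1.18 ranked at position 6 of the 525 LoNRDs of chromosomes 1 to 19 by the size of its index.

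The sequence of this cluster is largely repeated. Single-copy content was measured as the share of 50-base sequences, sampled every 50 bases, that occur at 1 place on either strand of chromosomes 1 to 19, X and Y. In the cluster 17.7% of these were single-copy, and in 100 kb around a gene the median was 71.9% for the members and 95% for all protein-coding genes. The median was 74.2% in Vmn2r and 84.1% in Olfr. In the NRDs the share was 8.66% in the TiNRD with 24 members, 0.185% in the LoNRD of -1.18, 2.32% in the TiNRD of 0.46 and 5.86% in the LoNRD of -0.42. It was 63.5% in the LoNRD of -0.15 and 90.8% in the TiNRD of 1.29, at the right end. Sequences of 150 bases were more often single-copy, at 30.8% in the cluster, 29.2% in the TiNRD with 24 members, 1.09% in the LoNRD of -1.18, 8.63% in the TiNRD of 0.46 and 18.2% in the LoNRD of -0.42. Thus NRDs of both kinds, including the LoNRD with the lowest index in the family, lay on sequence with little that is single-copy. The 2 late RT domains of this cluster also lay on repeated sequence, with 6.60% and 23.2% of 50-base sequences single-copy. Before calling domains the authors discarded read pairs that mapped poorly. The part of repeated sequence in the NRD values, the RT values and the alternation was not tested.

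**Figure D4:**
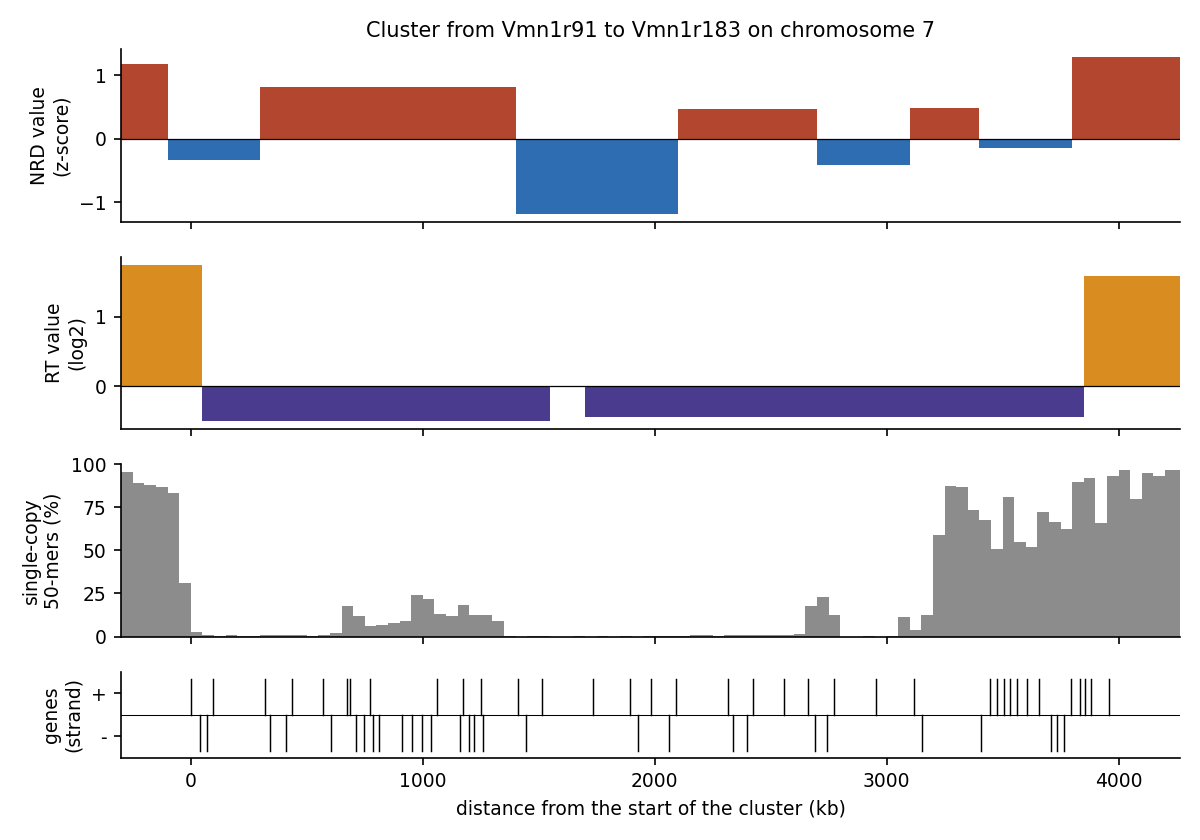
The cluster from Vmn1r91 to Vmn1r183 by distance from its start (kb, in 50 kb windows), with the wrapping index of the NRD (z-score), the RT value (log2), the single-copy share of 50-base sequences (%) and the genes on each strand. The wrapping index alternates in sign over 8 NRDs while RT stays late between the early domains at both ends, and the single-copy share is low over most of the span.

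Over the whole family, 51 members (24.5%) had under 50% single-copy sequence in 100 kb around them, compared with 3.61% of all genes. Apart from Vmn1r2 and Vmn1r3 on chromosome 4, these members were all in the largest cluster, so this split nearly repeats a split by that cluster. The lower quartile of the single-copy share was 52.8% in Vmn1r and 55.0% in Vmn2r. All 51 had both calls, and 35 were in a TiNRD and late, 14 in a LoNRD and late and 2 in a LoNRD and early. Among the other 157 members, 115 of 152 (75.7%) were in LoNRDs and 113 of 145 (77.9%) were late. Of the 140 with both calls, 65.7% were in a LoNRD and late and 11.4% in a TiNRD and late, compared with 6.2% in a TiNRD and late among all genes with at least 50% single-copy sequence. The share in a TiNRD and late was thus lower in members on mostly single-copy sequence than in the family, and the share in LoNRDs was higher.

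Near-identical copies were divided by the NRD list about as often as other members. Comparison of the coding sequences of all members gave 392 pairs that were at least 95% identical, 373 of them within the large chromosome 7 cluster, and 85 members took part in such a pair. Both genes had an NRD in 391 pairs, of which 180 (46.0%) were in different NRD kinds, the same share as over all 20503 pairs of members with NRDs (46.0%). Within the large cluster the shares were 46.9% of the near-identical pairs and 49.8% of all 2080 pairs. Both had an RT domain in 386 pairs, of which 24 (6.22%) were in different RT kinds, compared with 28.8% of all pairs of members. Most near-identical pairs lay in the large cluster, where 14.4% of all pairs were in different RT kinds. The coding sequence was identical in 10 pairs of 14 members, all in the large cluster, and 4 of these pairs were in different NRD kinds. For example, Vmn1r130 (LoNRD, -1.18) and Vmn1r165 (TiNRD, 0.49) had the same coding sequence and lay 1706 kb apart. Vmn1r130 was 12.2 kb from the nearest NRD border and Vmn1r165 was 17.8 kb from one, so that both lay close to the limit of a call. In 100 kb around them 0.227% and 4.73% of 50-base sequences were single-copy.

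Some members also shared the sequence around the start of the gene. The RefSeq table of GRCm38 gave 300 bases around the gene start for 183 members, of which 32 shared all 300 bases with at least 1 other member, in 13 groups. In 5 of these groups members were in both NRD kinds. Vmn1r130, Vmn1r137 and Vmn1r165 shared 1 sequence, and so did Vmn1r111, Vmn1r118, Vmn1r131, Vmn1r138 and Vmn1r166, in NRDs of 0.81, -1.18 and 0.49. In 158 of the 183 windows (86.3%) the RefSeq model began with ATG, so that for most members the window lies around the start of the coding sequence and not around a known start of transcription. The sequences of 2 neighbours on the sides of the NRD border at 21500000 of chromosome 7 are shown because the wrapping call changed from TiNRD to LoNRD between them. Vmn1r129 (chr7:21361242-21361541, minus strand) and Vmn1r130 (chr7:21511530-21511829, plus strand) are written 5′ to 3′, with the 50 bases from the RefSeq gene start in capitals.
Vmn1r129: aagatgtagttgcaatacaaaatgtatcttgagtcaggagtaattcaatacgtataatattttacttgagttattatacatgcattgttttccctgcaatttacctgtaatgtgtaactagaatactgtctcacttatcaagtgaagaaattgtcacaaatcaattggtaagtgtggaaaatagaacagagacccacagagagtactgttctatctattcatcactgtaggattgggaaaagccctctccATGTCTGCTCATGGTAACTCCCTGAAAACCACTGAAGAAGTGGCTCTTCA
Vmn1r130: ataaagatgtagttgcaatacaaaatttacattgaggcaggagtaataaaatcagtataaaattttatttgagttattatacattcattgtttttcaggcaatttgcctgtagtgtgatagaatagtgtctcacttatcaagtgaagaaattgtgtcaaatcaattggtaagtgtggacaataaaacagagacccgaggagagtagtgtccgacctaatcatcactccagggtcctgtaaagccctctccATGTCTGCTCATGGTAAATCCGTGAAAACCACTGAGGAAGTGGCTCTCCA
The windows of these neighbours were 84.7% identical and their coding sequences 92.0% identical, while the index of their NRDs was 0.81 and -1.18. The window of Vmn1r165 did not differ from that of Vmn1r130 at any base.

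The cluster on chromosome 13 (chr13:22084440-23253906, 36 gene models from Vmn1r188 to Vmn1r223) lay in NRDs with indices near 0. Its 4 genes from Vmn1r188 to Vmn1r192 were in a TiNRD of 0.0395, which ranked at position 556 of 561 TiNRDs by size. The other 32 gene models were in a LoNRD of -0.094, at position 500 of 525 LoNRDs. Both indices were thus close to the value that separates the kinds, and this cluster contributed 32 of the 131 members in LoNRDs. Replication timing changed 3 times along it. Vmn1r188 to Vmn1r192 were early (0.89), the 14 genes from Vmn1r193 to Vmn1r206 late (-0.44), 10 gene models from Vmn1r207-ps to Vmn1r216 in a stretch of 400 kb with no RT domain, and 8 up to Vmn1r223 early (0.84). Vmn1r216 has 2 overlapping gene models, and the border at 23100000 put the midpoint of the shorter in the unlisted stretch, 0.4 kb from the border, and that of the longer in the early domain. The nearest coding genes on its sides were Hist1h2bj, a histone H2B gene, in a TiNRD and Zfp322a in a LoNRD.

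Both lists changed at position 22200000 of chromosome 13, between Vmn1r192 (TiNRD, early) and Vmn1r193 (LoNRD, late). The windows of Vmn1r192 (chr13:22187999-22188298, minus strand) and Vmn1r193 (chr13:22219771-22220070, minus strand) are given in the same way, as the neighbours closest to a position where both calls changed and for which both windows were in the table.
Vmn1r192: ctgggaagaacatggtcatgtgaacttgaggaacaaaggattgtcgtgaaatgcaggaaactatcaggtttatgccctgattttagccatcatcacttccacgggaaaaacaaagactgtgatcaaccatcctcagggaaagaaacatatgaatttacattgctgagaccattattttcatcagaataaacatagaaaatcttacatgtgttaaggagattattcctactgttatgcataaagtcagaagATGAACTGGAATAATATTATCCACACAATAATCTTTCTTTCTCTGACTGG
Vmn1r193: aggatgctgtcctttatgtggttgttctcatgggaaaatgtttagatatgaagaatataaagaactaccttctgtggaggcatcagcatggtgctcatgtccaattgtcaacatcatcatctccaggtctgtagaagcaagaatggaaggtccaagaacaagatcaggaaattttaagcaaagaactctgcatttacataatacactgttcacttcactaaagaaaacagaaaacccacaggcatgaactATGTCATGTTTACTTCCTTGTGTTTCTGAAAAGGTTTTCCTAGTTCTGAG
These windows were 47.3% identical and the coding sequences 74.9% identical, so that the neighbours across this border were less alike than those across the border of the chromosome 7 cluster. The A/T content of the windows was 63.7% for Vmn1r192 and 61.7% for Vmn1r193.

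**Figure D5:**
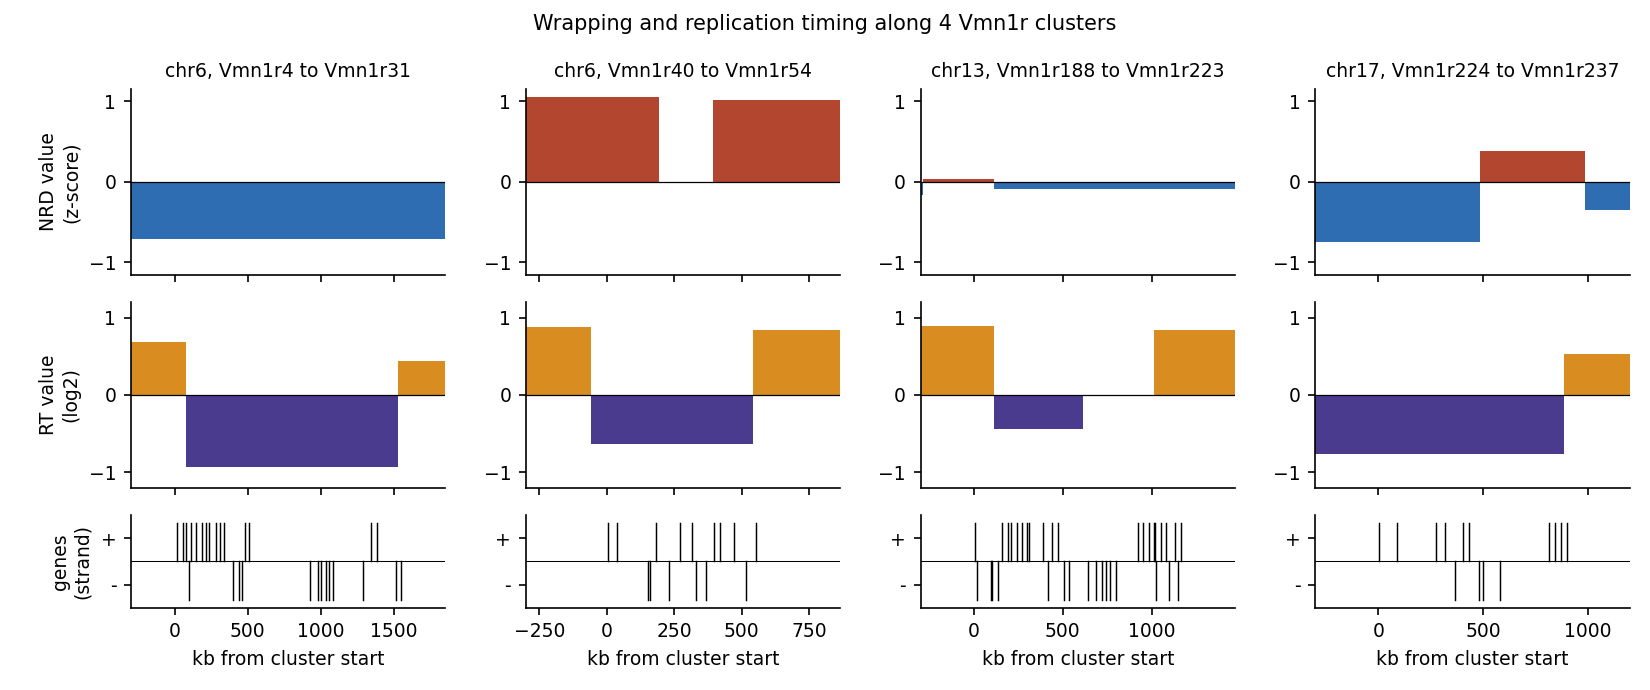
Wrapping index (top, z-score), RT value (middle, log2) and genes by strand (bottom) along 4 Vmn1r clusters, by distance from the start of each cluster in kb; empty stretches have no domain. The first cluster lies in a LoNRD of -0.71, the second in TiNRDs around a stretch without a call, the third in NRDs near 0, and the fourth passes from -0.75 to 0.38.

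On chromosome 17, Vmn1r224 to Vmn1r231 (8 genes) were in a LoNRD of -0.75 and the 6 genes from Vmn1r232 to Vmn1r237 in a TiNRD of 0.38. The border between them at 20900000 lay within the gene model of Vmn1r231, 2.86 kb from its midpoint. All except Vmn1r237, which was early (0.53), shared a late domain of -0.76. As in the large chromosome 7 cluster, the wrapping call changed inside a late domain, here in sequence that was 77.3% single-copy over the cluster. The TiNRD of 0.38, which spans 500 kb, was 68.9% single-copy, with 12.9% in its lowest window of 50 kb. The part of repeated sequence in this change was not tested. The remaining members were few. Vmn1r1, alone on chromosome 1, was in a TiNRD (0.69) and early (0.93). Vmn1r2 and Vmn1r3 on chromosome 4 were in a TiNRD (0.60) and in a late domain of -0.18, and Vmn1r238 on chromosome 18 was in a TiNRD (0.12) and in no RT domain.

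Vmn1r genes lay nearer to domain borders than genes in general. Within 200 kb of an NRD border were 51.4% of the members and 17% of all genes, and within 200 kb of an RT border 47.6% and 24.1%. The shares near an NRD border were 28.9% in Vmn2r and 25.5% in Olfr, and those near an RT border 41.3% and 47.9%, so that closeness to RT borders was common to the 3 families. The nearest to an NRD border were Vmn1r231 at 2.86 kb and Vmn1r50 at 5.27 kb, and the nearest to an RT border were Vmn1r216 at 0.4 kb and Vmn1r180 at 3.16 kb. The NRDs at the members had a median length of 1100 kb, against 4800 kb at all genes. Counted by domain the contrast was smaller, with 900 kb for the NRDs that held a member and 1100 kb for all NRDs. All NRD borders fell on multiples of 100 kb, which is coarser than the average spacing of 32.5 to 80.2 kb per gene in the clusters of 10 or more members. The authors smoothed the index over 10 bins of 100 kb before calling NRDs, and most NRDs of the largest cluster were shorter than this width. Calls and distances to an NRD border below this width are therefore uncertain.

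The base composition of the surroundings differed less between the 2 kinds of NRD for the family than for other genes. Over the spans of the 15 clusters A/T content had a median of 59.9%. In 100 kb around the gene it had a median of 60.5% for members in LoNRDs and 59.4% for members in TiNRDs. The largest cluster held 28 of the 131 members in LoNRDs and 37 of the 72 in TiNRDs, with medians of 59.9% and 59.6%. This split was not made for Vmn2r or Olfr. For all genes the medians were 60.8% in LoNRDs and 54.1% in TiNRDs. Members in TiNRDs thus lay in more A/T-rich sequence than other genes in TiNRDs. Repeats annotated in the assembly made up a median of 55.5% of the 100 kb around members and 29.7% around all genes. This repeat median was 53.0% in Vmn2r and 45.5% in Olfr. The A/T median in 100 kb was 60.0% for all members, 61.8% in Vmn2r and 61.6% in Olfr. Surroundings rich in A/T and repeats were thus common to the 3 families. The RefSeq windows had a median A/T content of 64% for the members and 47% over all 31396 windows in the table.

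Genes that act with the receptors were mostly in the kinds in which most genes lie, since 79.5% of all genes with an NRD were in TiNRDs and 77.9% of those with an RT domain were early. Of 12 genes of vomeronasal signal transduction, 11 were in TiNRDs and 10 were early. The channel Trpc2 had an index of 0.89 and an RT value of 1.08, and the G protein subunit Gnai2 had 0.87 and 1.41. The exception by NRD was Kcnj3, a potassium channel subunit, in a LoNRD and an early domain (0.32). Of 11 regulators of chemoreceptor neurons, 9 were in TiNRDs and 9 early. Of 6 guidance receptors and ligands of vomeronasal axons, 4 were in TiNRDs, 2 were early and 4 late. Over these 29 genes 24 were in TiNRDs, 21 were early and 19 were both.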

How the data were processed

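The data were 2 domain lists of R1 mouse ES cells, deposited without replicates. The deposited value of an NRD is a score, which has no unit: fragments of the H3 libraries were counted by length in bins, the deviation between longer and shorter fragments was turned into a z-score and smoothed, and domains were called with homer2. The value of an RT domain is a log2 ratio of early to late fractions deposited by the authors, counted in windows, quantile normalized and called with the same program. For both, reads were trimmed with cutadapt 4.3 and aligned to mm10 with Bowtie2 2.5.1, per the submitters' processing notes and the methods, and duplicates and reads of low mapping quality were removed. How a domain's value was made from its bins, and whether the RT list used both experiments, is not given in the sources used here. The other libraries, of histone H4, of MNase input, of the digestion series, of sorted cells and of pulse-labelled DNA, were not analysed here.

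Gene models were those of GENCODE M21, and sequence and gene windows those of RefSeq GRCm38. All domains lay inside the chromosomes of this assembly in 38 of 38 list and chromosome pairs, and on 18 of 19 autosomes the RT list reached exactly to the final base. Genes were assigned by midpoint, and genes under 500 kb apart formed a cluster. Coding sequences (longest of each gene) were compared by global edit distance with edlib 1.3.9.post1, as 1 minus the number of edits over the longer length, and 2 models of 1 coding exon were not compared with each other. Windows of 100 kb around a gene were summed over the 10 kb bins that they touch. Calculations used Python 3.11.15, numpy 2.4.6, scipy 1.17.1 and matplotlib 3.10.9. The assignment, clustering and single-copy count were tested on simulated data.

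The lists name no replicate and genes share domains, so no test was made and the results are counts, shares and medians beside those over all genes. The members and gene lists were chosen with earlier results of these data known. Genes named are the first and last of each cluster, genes alone in a cluster, members unlike most of their cluster, the highest and lowest values, those nearest to borders, those in no domain and the neighbours of large clusters, and those of the fixed lists. The pairs of identical copies, the members that share a window and the values by single-copy share were chosen after the values were seen. Protein sequences were not used here.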

Additional observations from a re-analysis of the deposited data

How the results depend on the processing

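No paired analysis was possible because the lists name no replicate. The lists hold 1 call per place, the tracks of the single experiments were not analysed here, and the precision was judged by other choices in the analysis. Of 133 values under alternatives, 104 stayed within the 95% counting interval of the share or median, or within 1.5 times a count, 27 moved outside it and 2 changed sign. Members share domains, so these intervals cover counting only and are too narrow. Assignment by the gene start or by most of the length, adding pseudogenes or the sex chromosomes, domains of at least 500 kb and nearest domains for genes in gaps kept all 4 shares and both medians within those intervals. Counting each domain in place of each gene gave 42.9% in LoNRDs, 44.0% late and 36.1% in both, and the medians changed sign to 0.179 for the wrapping index and 0.53 for RT, which follows from the larger numbers of members in LoNRDs and late domains. Counting each cluster by its midpoint gave 71.4% in LoNRDs, 75% in LoNRDs and late, 8.33% in TiNRDs and late, and medians of -0.342 and -0.58. Leaving out each chromosome in turn gave 59.3% to 75% in LoNRDs, the highest without chromosome 7, 79.8% to 87.1% late, 51.0% to 60.7% in both, 18% (without chromosome 7) to 30.9% in TiNRDs and late, and medians from -0.302 (without chromosome 13) to -0.094 and from -0.64 (without chromosome 7) to -0.44 (without chromosome 6). Genes under 200 kb apart formed 22 clusters, with 8 in 1 NRD kind and 8 in 1 RT kind, and genes under 1 Mb apart formed 13, with 3 and 1. The share in TiNRDs and late was recomputed only after seeing the data, as were the alternatives that follow. With members on at least 50% single-copy sequence, 75.7% were in LoNRDs, 65.7% in LoNRDs and late, 11.4% in TiNRDs and late, and the RT median was -0.58. Without the largest cluster these were 74.6%, 63.5%, 13.5% and -0.58, and the median wrapping index was -0.302. Without NRDs whose index lay within 0.1 of 0, that median was also -0.302 and 59.3% of members were in LoNRDs. RefSeq gene models (229 in place of 208) gave 63.8% in LoNRDs and 84.2% late.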

Other observations

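Genes with a Vmn1r symbol that are not protein-coding had shares like those of the receptors. Most of them lie inside the clusters of members and share their domains, so the likeness is largely given by position. Of the 118 on chromosomes 1 to 19, all annotated as pseudogenes of some kind, 75 of 114 in an NRD (65.8%) were in LoNRDs and 81 of 103 in an RT domain (78.6%) were late, and 22 were in a TiNRD and late. The cluster on chromosome 13 held 31 of them beside its 36 coding models, and the largest cluster on chromosome 7 held 13 beside 65. Other coding genes inside the clusters numbered 59, and 26 of these were at least 85% identical in coding sequence to a member, 25 of them on chromosome 7. Among these, Gm10666 had the same coding sequence as Vmn1r93, V1rd19 was 90.4% identical to Vmn1r181, and V1ra8 on chromosome 6 was 89.8% identical to Vmn1r52. The 26 were divided evenly, with 13 in TiNRDs and 13 in LoNRDs, and they lie outside the family only by symbol. These genes were chosen after their values were seen.

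The lists also covered smaller families of chemoreceptors. All 15 trace amine-associated receptor genes (Taar) lay in 1 TiNRD of 0.149 and in an early domain of 0.58. Of 35 bitter taste receptor genes (Tas2r), 28 were in LoNRDs, and the 32 with an RT domain were late. All 7 formyl peptide receptor genes (Fpr), some of which are expressed in the vomeronasal organ, lay in 1 LoNRD of -0.75, and 5 of them were late. This LoNRD also held Vmn1r224 to Vmn1r231. Over all protein-coding genes, 20.5% of those with an NRD were in LoNRDs and 22.1% of those with an RT domain were late.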
